A study of Mus musculus with 8 samples.

Results

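The effect of blocking Creb3l2 was measured by RNA-seq as the difference between neuro-intermediate lobes of the mouse pituitary that carried the ACreb3l2 transgene and WT lobes. All 4 libraries of these groups were taken, 2 per group, of the 8 in the series, and all 15580 genes that passed the expression limit were compared, of 48526 listed. Each library was made from a pool of 5 lobes dissected from C57B6 mice. The mice were males of 3 months. ACreb3l2 encodes a dominant negative protein in which an acidic stretch takes the place of the DNA-binding region of Creb3l2, so that it pairs with the factor and holds it off DNA. It was driven by the rat POMC promoter, which is active in the melanotropes of the intermediate lobe and in corticotropes, and the animals keep their own Creb3l2. The AXBP1 libraries carried the corresponding transgene against XBP1 and the ACreb3l2/AXBP1 libraries carried both transgenes, with 2 libraries each, and they were used for direct comparisons with ACreb3l2 and for the fit. The labels call the material melanotropes, but the lobes were not sorted, and transcripts of pituicytes, vessels and the anterior lobe were present.

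Creb3l2 belongs to a family of basic leucine zipper factors that sit in the membrane of the endoplasmic reticulum (ER) and are cut to release the part that enters the nucleus. In secreting cells of other tissues it is known for raising genes of ER-to-Golgi transport. Newly made secretory proteins enter the ER through the Sec61 channel, are glycosylated and folded there, leave in vesicles coated with COPII, and pass through the Golgi, from which the COPI coat returns vesicles to the ER. Melanotropes send most of their output, the hormone precursor POMC and the peptides cut from it, along this route.

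The libraries held between 28256086 and 37988912 counts, and Pomc took 10.5% and 14.6% of counts in WT and 11.8% and 10.6% in ACreb3l2. Values below are normalized counts, that is, counts corrected for library size with TMM factors, given in the order WT replicate 1 and 2, then ACreb3l2 replicate 1 and 2. Called genes are those whose p from edgeR's quasi-likelihood test was under 0.05 after Benjamini-Hochberg adjustment over all tested genes. In bulk tissue, fewer cells of a type and less RNA per cell cannot be told apart. Nothing in the labels says that the pools came from separate litters or days, so p-values measure the spread between these pools.

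DNA elements at the starts of genes that fell are shown first, since the results return to them. A reporter designed for Creb3l2 carries 3 copies of an element from an enhancer of Kcnma1. In the study both Creb3l2 and XBP1 activated this reporter in transfected cells, so the element is not particular to Creb3l2. The element is in capitals in the oligo, which reads 5′ to 3′:
reporter oligo: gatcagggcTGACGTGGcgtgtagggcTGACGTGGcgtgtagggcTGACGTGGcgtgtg

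Its last 6 bases, ACGTGG, stood in 103 of the 323 promoter windows of genes called lower in ACreb3l2 (31.9%). They stood in 11.1% of the windows of all tested genes, and this motif was taken up after values were seen. When the element lies on the opposite strand it reads CCACGT. A window holds the 250 bases before and the 50 after the most upstream start in RefSeq (build GRCm38.p6). The following 30-base stretches, read 5′ to 3′ on the strand of the gene with the 6 bases in capitals, come from called genes of the COPII, COPI and Golgi lists and from the 2 genes with the lowest adjusted p:
Sar1a, chr10:61680116-61680145, plus strand: tgacagacgctgCCACGTcttaccccgctt
Sec24d, chr3:123267460-123267489, plus strand: cccgggcgcctgACGTGGcactagcaaccc
Sec31a, chr5:100416204-100416233, minus strand: gggctgcggctgCCACGTtggagcggagcg
Sec23a, chr12:59011992-59012021, minus strand: tcctcccctttgACGTGGcagaggcggcac
Copz2, chr11:96849896-96849925, plus strand: tgcagcggccggaggcctggCCACGTccgc
Copb2, chr9:98563712-98563741, plus strand: ttcccggaagttCCACGTcagtgggttggc
Gbf1, chr19:46152534-46152563, plus strand: tgaggctagttaCCACGTcagtgagctgac
Arf4, chr14:26638019-26638048, plus strand: cttcgctgggctCCACGTccggtagttcgc
Stx5a, chr19:8741421-8741450, plus strand: gtggcgcagcagCCACGTcaccgagttagg
Golga3, chr5:110176873-110176902, plus strand: ccccttgcacagCCACGTcctaccggagcc
Fam114a1, chr5:64970082-64970111, plus strand: ccggtcctgccgACGTGGcggggcgggacc
Cdr2, chr7:120982272-120982301, minus strand: tctgccaaagtgCCACGTtgggccgggcag

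A different element, TGATGNAA on either strand, is the composite element known to be bound by ATF4 with a C/EBP partner. It stood in the windows of 13 genes called lower (4.02%, against 2.22% of all windows), some of them outside these lists, such as Kdelr1 and Txndc5. The stretches with this element in capitals are those of the called members of the ATF4, amino acid synthesis and tRNA synthetase lists that hold it:
Trib3, chr2:152344028-152344057, minus strand: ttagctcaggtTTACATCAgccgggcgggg
Chac1, chr2:119351038-119351067, plus strand: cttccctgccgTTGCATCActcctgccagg
Pycr1, chr11:120643833-120643862, minus strand: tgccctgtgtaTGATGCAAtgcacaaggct
Asns, chr6:7693214-7693243, minus strand: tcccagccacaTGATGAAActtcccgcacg
Tars, chr15:11399655-11399684, minus strand: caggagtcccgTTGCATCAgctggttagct
Gars, chr6:55037960-55037989, plus strand: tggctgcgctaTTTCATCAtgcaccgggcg

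The transcript of the blocked factor came next. Creb3l2 (protein coding, mm10 chromosome 6, bases 37327255 to 37442146) stood at 28682 and 28195 normalized counts in WT and 27212 and 26775 in ACreb3l2. The groups did not overlap, yet the log2 change was -0.08 (SE 0.175, edgeR adjusted p = 0.874). The transgene carries the zipper of the factor, so its reads could add to these counts, and no rise was seen. The counts thus do not show the transgene, and the genotype labels could not be checked from them. The study chose its mouse lines for transgene RNA well above that of the endogenous factor, measured by RT-qPCR apart from these libraries. Xbp1, the zipper factor of the IRE1 branch, had 11877 and 13436 normalized counts against 9155 and 9205 (log2 change -0.46, SE 0.14, edgeR adjusted p = 0.127). Creb3, a relative of Creb3l2, fell from 3398 and 4140 to 2573 and 2562 normalized counts (log2 change -0.55, SE 0.108, edgeR adjusted p = 0.0244), 1 call among the 10 tested members of the list of CREB3 family, IRE1 and ATF6 sensors. Creb3 lost its call without WT replicate 2 (-0.41), ACreb3l2 replicate 1 (-0.55) or ACreb3l2 replicate 2 (-0.55), shares exonic sequence with Gba2 and Tln1 on the opposite strand and is uncertain.

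In ACreb3l2 against WT, 473 genes were called, which is 3.04% of those tested. Of these, 389 were lower in ACreb3l2 (2.5% of tested genes) and 84 were higher (0.539%). The median log2 change was -0.66 over the genes called lower, from -5.60 to -0.34, and 79 of them changed by more than 1 on this scale. Over all tested genes the median was 0.01, and 48.2% of them had a log2 change below 0. The genes called lower were well expressed, with a median of 22.8 FPKM (fragments scaled for gene length and for the mapped total of the library) in WT against 8.09 over all tested genes, and those called higher had 3.81. Protein-coding genes made up 372 of the genes called lower and 81 of those called higher. The count depended on the libraries, with 158 calls without WT replicate 2, 195 without ACreb3l2 replicate 1 and 153 without ACreb3l2 replicate 2, and 96 of the 473 were called in all 4 fits that left out a library.

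The lowest adjusted p belonged to Fam114a1 (ENSMUSG00000029185, chromosome 5, 64970071 to 65041886), which had 5415 and 6277 normalized counts in WT and 1790 and 1788 in ACreb3l2. Both ACreb3l2 libraries lay far below both WT libraries (log2 change -1.71, SE 0.0899, edgeR adjusted p = 5.55e-05). Cdr2 (ENSMUSG00000030878, chromosome 7, 120957036 to 120982312) fell from 3325 and 3289 to 1115 and 909 normalized counts (log2 change -1.71, SE 0.104, edgeR adjusted p = 0.000117). Both hold the reporter element's 6 bases shown above and both were also called lower than in AXBP1. Rcn3, a calcium-binding protein of the ER lumen, had 9032 and 12224 normalized counts in WT and 2971 and 2541 in ACreb3l2 (log2 change -1.95, SE 0.148, edgeR adjusted p = 0.000443). Maged2 (-1.12) and Ikbip (-1.02) were, with these 3, named for a low adjusted p against AXBP1. Rcn3 shares exonic sequence with an antisense gene and is uncertain.

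Genes of transport between ER and Golgi held many of the falls. Of 41 tested members of the list of COPII coat, cargo receptors and p24 proteins, 19 were called lower and 0 higher, with a median log2 change of -0.44. Sar1a, the GTPase that starts the COPII coat, had 16863 and 17284 normalized counts in WT and 9190 and 9448 in ACreb3l2. Both ACreb3l2 libraries lay far below WT (log2 change -0.87, SE 0.0859, edgeR adjusted p = 0.000961). Sec24d, a cargo adaptor of the inner coat, fell from 4196 and 5008 to 2227 and 2215 normalized counts (log2 change -1.05, SE 0.112, edgeR adjusted p = 0.00136). Sec31a, of the outer coat, fell from 10823 and 12614 to 6298 and 6686 (log2 change -0.85, SE 0.109, edgeR adjusted p = 0.00334).

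Some receptors that sort cargo were called lower and others were not. Kdelr2, which returns escaped ER proteins from the Golgi, had 9387 and 11178 normalized counts in WT and 4692 and 4799 in ACreb3l2. This was the largest fall of the list and the groups lay far apart (log2 change -1.12, SE 0.109, edgeR adjusted p = 0.000961). Its relatives Kdelr1 (-0.65) and Kdelr3 (-0.94) were called lower too, so all 3 KDEL receptors fell. Surf4, an export receptor for soluble cargo, fell from 16514 and 20026 to 9765 and 9771 normalized counts (log2 change -0.90, SE 0.125, edgeR adjusted p = 0.00459), and Yif1a, a membrane protein of this route, changed by -0.84 (SE 0.119, edgeR adjusted p = 0.0054). Lman1, a lectin receptor for glycoproteins, changed by -0.48 (edgeR adjusted p = 0.0182), whereas Tmed10, Lman2 and Mcfd2 had log2 changes between -0.02 and 0.03 and were not called. Surf4 and Yif1a overlap genes on the opposite strand and are uncertain. The list's count was 10 without WT replicate 2, 8 without ACreb3l2 replicate 1 and 7 without ACreb3l2 replicate 2, and Kdelr2, Sar1a, Sec24d, Sec31a and Yipf5 were called under every alternative.

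The COPI list had the lowest median. Of its 20 tested members 13 were called lower and 0 higher, with a median log2 change of -0.58, and the 13 included 8 of the 9 genes of coat subunits. Copz2, a zeta subunit, had 1837 and 2465 normalized counts in WT and 726 and 712 in ACreb3l2 (log2 change -1.58, SE 0.13, edgeR adjusted p = 0.000443). Arfgap1, which triggers GTP hydrolysis on ARF1 and so uncoating, fell from 4139 and 5115 to 2000 and 2016 (log2 change -1.20, SE 0.119, edgeR adjusted p = 0.000961). Neither gene overlapped between the groups, and both were called under every alternative. Copb2, the beta prime subunit, fell from 19398 and 21500 to 10823 and 11968 normalized counts (log2 change -0.84, SE 0.111, edgeR adjusted p = 0.00375). Arf4, Arfgap3 and Copg1 fell by 0.72, 0.97 and 0.72 on the log2 scale, and of these Arf4 and Copg1 overlap genes on the opposite strand. Without WT replicate 2, ACreb3l2 replicate 1 or ACreb3l2 replicate 2 the count was 6, 5 and 7.

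Of 27 tested Golgi tethers, golgins and SNAREs 12 were called lower and 0 higher, with a median log2 change of -0.40. Cog6, a subunit of the tethering complex of the Golgi, had 4560 and 4500 normalized counts in WT and 2483 and 2664 in ACreb3l2 (log2 change -0.82, SE 0.0805, edgeR adjusted p = 0.000961). Sec22b, a SNARE of ER-Golgi vesicles, fell from 7194 and 8445 to 4151 and 4652 (log2 change -0.83, SE 0.106, edgeR adjusted p = 0.00334). Stx5a, the Golgi SNARE that it pairs with, fell from 2900 and 3477 to 1855 and 1993 (log2 change -0.73, SE 0.0966, edgeR adjusted p = 0.00375). The other falls among those named by the rule were Bet1l (-0.84), the golgin Golga3 (-0.81) and the stacking protein Gorasp2 (-0.74). Uso1, the tether p115, had 2060 and 3439 normalized counts in WT and 1419 and 1573 in ACreb3l2 with no call (edgeR adjusted p = 0.0897). Bet1l, Gorasp2 and Stx5a share exonic sequence with other genes and are uncertain. The count was 7 without WT replicate 2, 5 without ACreb3l2 replicate 1 and 7 without ACreb3l2 replicate 2.

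**Figure D1:**
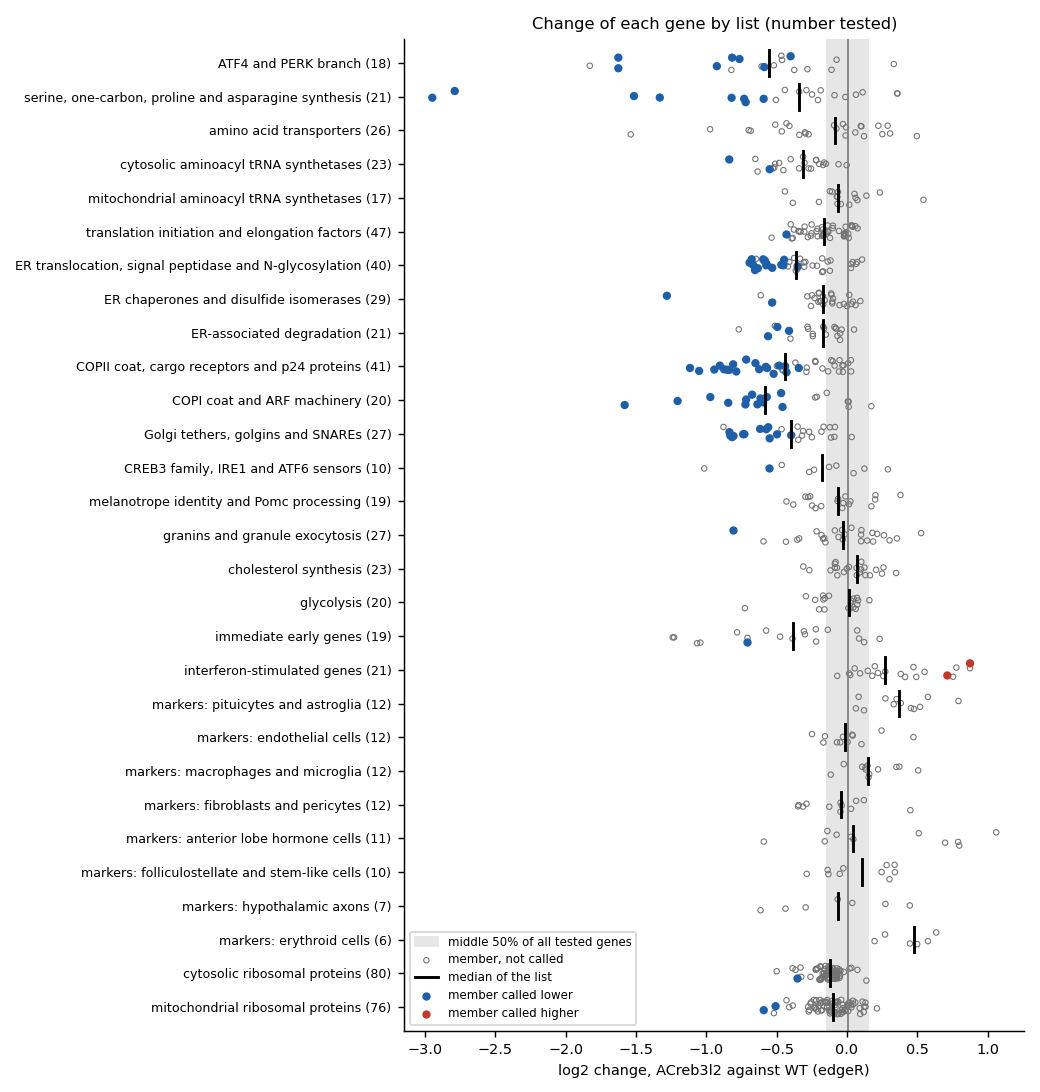
Log2 change in ACreb3l2 against WT (x axis, edgeR) of every tested member of each list, with called members filled, the list's median as a bar and the middle 50% of all tested genes as a grey band. The medians of the COPI, ATF4 and COPII lists lie lowest, at -0.58, -0.55 and -0.44, while those of the melanotrope, granin, cholesterol and glycolysis lists lie between -0.06 and 0.07.

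Paralogues that share a place in the coats were set side by side, a choice made after their values were seen, and the differences between them were not tested. The gamma subunit Copg1 fell, and its paralogue Copg2 had 4181 and 3782 normalized counts in WT and 3851 and 4182 in ACreb3l2, with overlapping groups (log2 change 0.01, SE 0.0843). Sec23a (-0.58) and the adaptors Sec24d (-1.05) and Sec24a (-0.81) were called lower, while Sec23b (-0.22), Sec24c (-0.23) and Sec24b (-0.03) were not called. Arf1 (-0.46) and Arf4 (-0.72) were called lower and Arf3 (0.17) and Arf5 (-0.14) were not. For Arfgap2 the log2 change was 0.01 (SE 0.0934). In WT the called paralogue was the more abundant per length in some pairs, such as 126 FPKM for Copg1 and 37.6 for Copg2, and the less abundant in others, such as 32.4 for Sec23a and 93.5 for Sec23b. Copg2, Sec24c, Arf5, Arfgap2 and Sec23a overlap genes on the opposite strand.

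**Figure D2:**
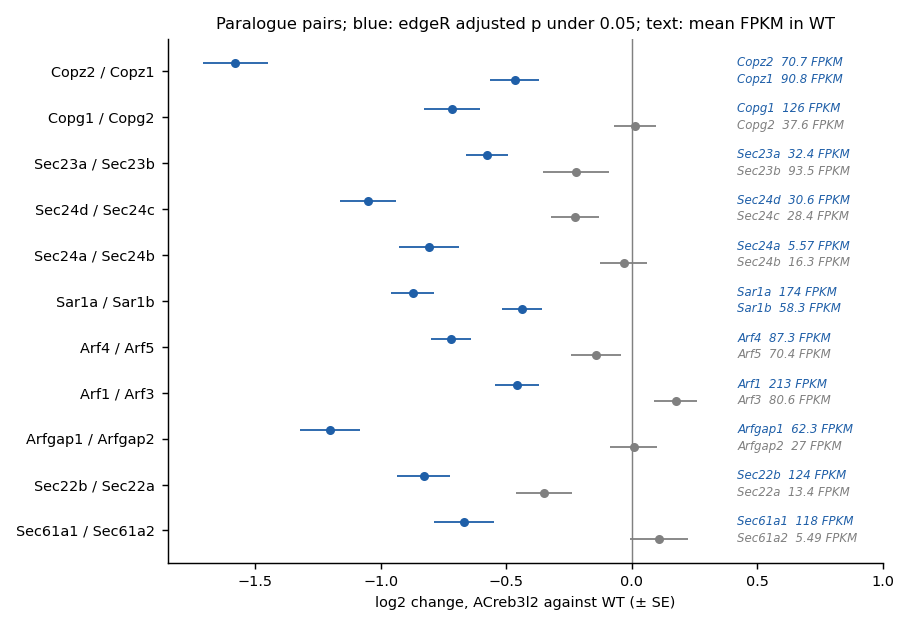
Log2 change in ACreb3l2 against WT (x axis) with its SE for 11 pairs of paralogues, blue where edgeR called the gene, with the mean FPKM in WT beside each name. In 9 of the 11 pairs 1 gene is blue and its paralogue is grey, as for Copg1 (-0.72) and Copg2 (0.01).

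Genes of the entry step into the ER were among the falls too. Of 40 tested genes of translocation, signal peptidase and N-glycosylation 15 were called lower and 0 higher, with a median log2 change of -0.36. Of the 6 named by the rule 3 build the sugar donor UDP-N-acetylglucosamine. Gfpt1, which takes the first and limiting step, fell from 8663 and 10130 to 5437 and 6514 normalized counts (log2 change -0.65, SE 0.108, edgeR adjusted p = 0.0114). Pgm3 fell from 2195 and 2401 to 1515 and 1550 (log2 change -0.58, SE 0.0835, edgeR adjusted p = 0.00543). Uap1, which takes the last step, fell from 2216 and 2263 to 1423 and 1466 (log2 change -0.63, SE 0.0825, edgeR adjusted p = 0.00375). Alg5, Ostc and Stt3a, which serve the transfer of glycans to protein, changed by -0.68, -0.69 and -0.59. The channel subunit Sec61a1 was called lower (-0.67) and Sec61b (-0.41, edgeR adjusted p = 0.0878) was not. The list's count was 5, 2 and 4 without WT replicate 2, ACreb3l2 replicate 1 and ACreb3l2 replicate 2.

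Called genes outside the lists that handle sugar nucleotides were picked after their values were seen, without a count of such genes, so nothing follows for the group. Gmppb, which makes GDP-mannose, fell from 3246 and 3881 normalized counts in WT to 1350 and 1276 in ACreb3l2 (log2 change -1.44, SE 0.201, edgeR adjusted p = 0.0115). Slc35c1, the carrier of GDP-fucose into the Golgi, fell from 1040 and 1276 to 520 and 521 (log2 change -1.15, SE 0.114, edgeR adjusted p = 0.000961). Nans (-0.83) and Cmas (-0.59), which make and activate sialic acid, and Slc35a2 (-0.66), the UDP-galactose carrier, were on the same side. Pgm3, Gmppb and Nans overlap genes on the opposite strand and are uncertain.

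Folding genes of the ER were examined beside these. Of 29 tested chaperones and disulfide isomerases 2 were called lower (6.9%, against 2.5% of all tested genes), Fkbp11 (-1.28) and Txndc5 (-0.53), with a median of -0.17 over the list. Hspa5, the major ER chaperone, had 72518 and 82287 normalized counts in WT and 73324 and 81550 in ACreb3l2, so that the libraries overlapped and the log2 change was 0.00 (SE 0.144). The log2 changes of Hsp90b1, Pdia4 and Calr were 0.03, -0.02 and -0.10, with SE 0.109, 0.125 and 0.152. In ER-associated degradation 3 of 21 tested genes were called lower (14.3%), Vimp (-0.56), Edem3 (-0.41) and Erlec1 (-0.49), with a median of -0.17. Txndc5 overlaps genes on the opposite strand. Each of these counts became 0 or 1 without WT replicate 2, without ACreb3l2 replicate 1 or without ACreb3l2 replicate 2.

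A second body of falls concerned ATF4 and amino acid supply. Of 18 tested genes of the ATF4 and PERK branch 7 were called lower and 0 higher, with a median log2 change of -0.55. Atf4 (ENSMUSG00000042406, chromosome 15, 80255184 to 80257541), the factor that is translated more when the kinase PERK is active, had 7729 and 8435 normalized counts in WT and 4434 and 4079 in ACreb3l2 (log2 change -0.92, SE 0.106, edgeR adjusted p = 0.0021). Its target Trib3 fell from 386 and 477 to 128 and 152 (log2 change -1.62, SE 0.173, edgeR adjusted p = 0.00136). Chac1, which degrades glutathione, fell from 1091 and 1459 to 339 and 491 (log2 change -1.63, SE 0.25, edgeR adjusted p = 0.0164). Ddit3, known as CHOP (-0.76), Eif2ak3, which encodes PERK (-0.59), Cebpg (-0.40) and Sesn2 (-0.82) were the other calls. Eif4ebp1 had 309 and 676 normalized counts in WT and 125 and 153 in ACreb3l2 and was not called (log2 change -1.83, edgeR adjusted p = 0.0743). Ddit3, Eif2ak3 and Cebpg overlap other genes and are uncertain, and without WT replicate 2, ACreb3l2 replicate 1 or ACreb3l2 replicate 2 the count of the list was 3, 4 and 4.

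Among 21 tested genes of serine, one-carbon, proline and asparagine synthesis 8 were called lower and 0 higher, with a median of -0.34. The largest falls were in mitochondrial enzymes. Aldh1l2, of mitochondrial folate metabolism, fell from 742 and 686 to 107 and 76.5 normalized counts, with the groups far apart (log2 change -2.95, SE 0.197, edgeR adjusted p = 0.000186). Pycr1, the last step of proline synthesis, had 595 and 1012 in WT and 108 and 126 in ACreb3l2 (log2 change -2.79, SE 0.314, edgeR adjusted p = 0.00476). Mthfd2 (-1.51), Shmt2 (-0.72) and Mthfd1l (-0.59) belong to the same compartment, and Aldh18a1 (-1.33) starts proline synthesis. In the cytosol Psat1 (-0.73), of serine synthesis, and Asns (-0.82), which makes asparagine, were called lower. Phgdh, the first step of serine synthesis, had 858 and 1349 normalized counts in WT and 779 and 845 in ACreb3l2 and was not called (log2 change -0.44, edgeR adjusted p = 0.281). Aldh1l2 and Shmt2 overlap genes on the opposite strand. The count was 6, 3 and 3 without WT replicate 2, ACreb3l2 replicate 1 and ACreb3l2 replicate 2.

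Genes that use amino acids were examined beside these. All 23 genes of the cytosolic tRNA synthetase list, which includes the accessory proteins Aimp1, Aimp2 and Eef1e1, had a log2 change below 0, with a median of -0.31, and 2 were called, Tars (-0.84, SE 0.121, edgeR adjusted p = 0.006) and Gars (-0.55, SE 0.108, edgeR adjusted p = 0.0246). That count was 7 without WT replicate 1, 1 without WT replicate 2, 0 without ACreb3l2 replicate 2 and 8 with DESeq2. None of 17 mitochondrial synthetases was called by edgeR (median -0.06, with 2 at an unadjusted p under 0.05, and with DESeq2 0 lower), the lowest unadjusted p being those of Ears2 (-0.38) and Sars2 (-0.44). Of 47 translation initiation and elongation factors 40 lay below 0, as did 48.2% of all tested genes. The 1 called (2.13%, against 2.5% of all tested genes called lower) was Eef1b2, with 10615 and 11210 normalized counts in WT and 8115 and 8064 in ACreb3l2 (log2 change -0.43, SE 0.0844, edgeR adjusted p = 0.0244). Of 80 cytosolic ribosomal proteins 76 lay below 0 with a median of -0.12, and Rpl36al (-0.35, edgeR adjusted p = 0.0461) was called, 1.25% of the list. DESeq2 called 4 of the translation factors and 5 of the ribosomal proteins lower, and no call of either list held in all 4 fits that left out a library. Of 76 mitochondrial ribosomal proteins Mrpl17 (-0.51) and Mrps28 (-0.59) were called, a share near that of all genes, with a median of -0.10, and the count was 1 without WT replicate 1 and 0 without each of the other 3 libraries. In the list of 26 amino acid transporters 0 were called by edgeR, 10 had an unadjusted p under 0.05 and DESeq2 called 1 lower, around a median of -0.08. Slc7a1, a carrier of cationic amino acids, had 5017 and 6198 normalized counts in WT and 3819 and 3158 in ACreb3l2 (edgeR adjusted p = 0.0817). Eef1b2 and Rpl36al share exonic sequence with other genes.

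Among called genes outside the lists, some with roles in making ribosomes were picked after their values were seen, without a count of such genes, so nothing follows for the group. Tsr1, a factor of small-subunit maturation, fell from 3681 and 3894 to 2144 and 2325 normalized counts (log2 change -0.76, SE 0.0973, edgeR adjusted p = 0.00334). Gnl3 (-0.59), Ppan (-0.68), Nifk (-0.46) and Bysl (-0.61) act in the same process, and Cad (-0.83) starts pyrimidine synthesis. Tsr1, Gnl3, Ppan and Bysl share exonic sequence with other genes and are uncertain.

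The hormone output of the melanotropes was not among the calls. Of 19 tested genes of melanotrope identity and Pomc processing 0 were called by edgeR or DESeq2, and 4 reached an unadjusted p under 0.05, while the median log2 change was -0.06. Pomc had 3460470 and 5180570 normalized counts in WT and 3863160 and 3415250 in ACreb3l2, and the groups overlapped (log2 change -0.25, SE 0.251, edgeR adjusted p = 0.672). Without WT replicate 2 its change was 0.07, and without the expression limit it was called lower (-0.25, edgeR adjusted p = 0.0288), as 1 of 4 genes of the list. Tbx19, the melanotrope factor Tpit, had 21336 and 23105 against 18320 and 14669 (log2 change -0.43, edgeR adjusted p = 0.288), and Pax7, which sets melanotropes apart from corticotropes, had 11442 and 13636 against 10216 and 14426. Crhr1, a receptor for corticotropin-releasing hormone, had a log2 change of 0.38 and was not called (edgeR adjusted p = 0.237). Of 27 granins and genes of granule exocytosis Rab3d was called lower (-0.81, SE 0.17, edgeR adjusted p = 0.0449), with 2636 and 3947 normalized counts against 1952 and 1804. This was 3.7% of the list, against 2.5% of all tested genes, with a median of -0.03 over the list. Rab3d lost its call without WT replicate 2 (-0.49), ACreb3l2 replicate 1 (-0.87) or ACreb3l2 replicate 2 (-0.75).

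**Figure D3:**
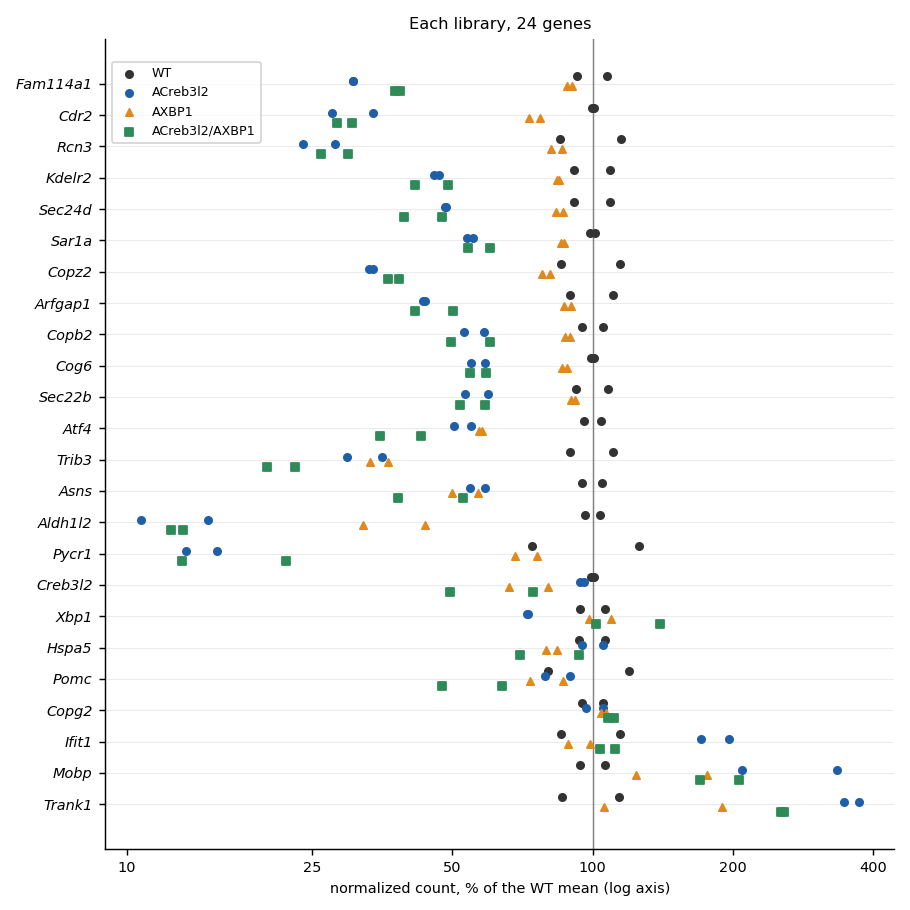
Normalized counts of 24 genes in each of the 8 libraries, in percent of the WT mean on a log axis, with a colour and shape for each group. The ACreb3l2 libraries of Fam114a1, Copz2 and Arfgap1 lie below all AXBP1 and WT libraries, those of Atf4, Trib3 and Asns lie in or beside the range of AXBP1, and those of Hspa5 and Copg2 overlap WT.

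The comparison of ACreb3l2 with AXBP1 asked which of these levels differed between the transgenes. In it 106 genes were lower in ACreb3l2 (0.68% of tested genes) and 6 were higher (0.0385%), with 7 of 41 COPII genes, 4 of 20 COPI genes and 7 of 27 Golgi genes lower. The 112 calls in all became 25 without ACreb3l2 replicate 1, 51 without ACreb3l2 replicate 2, 18 without AXBP1 replicate 1 and 21 without AXBP1 replicate 2. Copz2 differed by -1.25 on the log2 scale (SE 0.13, edgeR adjusted p = 0.00262), Arfgap1 by -1.02 (SE 0.118, edgeR adjusted p = 0.00516) and Sar1a by -0.66 (SE 0.0857, edgeR adjusted p = 0.00798). In the ATF4 list only Eif2ak3 was called (-0.53, edgeR adjusted p = 0.0266), and the median was -0.06. The log2 difference was -0.12 for Atf4 (edgeR adjusted p = 0.816), -0.10 for Trib3 (edgeR adjusted p = 0.937) and 0.09 for Asns (edgeR adjusted p = 0.934). Aldh1l2 (-1.55, edgeR adjusted p = 0.00745) and Pycr1 (-2.32, edgeR adjusted p = 0.0217) were called lower than in AXBP1, the calls of the synthesis list. Of the tRNA synthetases 0 of 23 were called by edgeR in this comparison, with a median of -0.04.

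The same transgene was also measured beside AXBP1, as ACreb3l2/AXBP1 against AXBP1, a comparison that shares no library with ACreb3l2 against WT. There 96 genes were lower (0.616% of tested genes), and all 96 were among the 389 genes called lower in ACreb3l2 against WT. Of the 84 genes called higher against WT, 0 were called higher there. Both comparisons use the spread estimated in the same fit of 8 libraries, so their calls are not independent. The 97 calls in either direction became 7 without AXBP1 replicate 1 or 2, 11 without ACreb3l2/AXBP1 replicate 2 and 127 without ACreb3l2/AXBP1 replicate 1. The COPII list had 7 genes called lower, the COPI list 6 and the Golgi list 6. The ER translocation list had 4, the synthesis list 2, the ATF4 list 1 and the tRNA synthetase list 0. Median log2 changes there were -0.23 for the COPII, -0.44 for the COPI and -0.32 for the Golgi list, and -0.27 for the ATF4, -0.17 for the synthesis and -0.19 for the tRNA synthetase list. Kdelr2 changed by -0.90 (edgeR adjusted p = 0.00657), Sec24d by -0.97 (edgeR adjusted p = 0.00566) and Fam114a1 by -1.23 (edgeR adjusted p = 0.00102). For Atf4 the log2 change was -0.56 (edgeR adjusted p = 0.0526) and for Asns -0.23 (edgeR adjusted p = 0.592), neither of them called. A test of the difference between the changes with and without AXBP1 called 0 genes by edgeR, with 386 at an unadjusted p under 0.05.

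**Figure D4:**
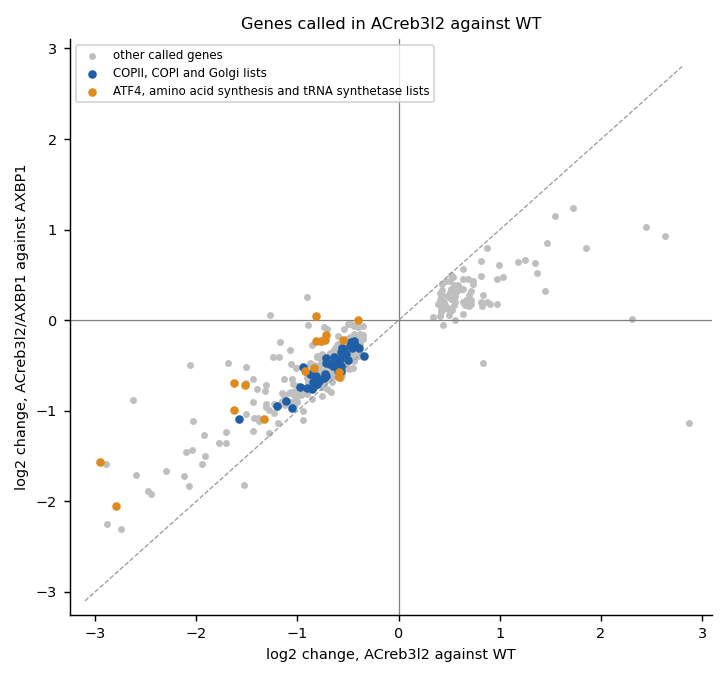
Log2 change of the genes called in ACreb3l2 against WT (x axis) and of the same genes in ACreb3l2/AXBP1 against AXBP1 (y axis, no library in common), with 469 genes drawn and 4 outside the axes. The dashed line marks equal changes. The called coat and Golgi genes (blue) lie below 0 on both axes. Genes of the ATF4, synthesis and tRNA synthetase lists are orange, such as Asns (-0.82 and -0.23).

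The promoter elements were counted over all tested genes with a window in RefSeq. A window was matched for 11630 of the 15580 tested genes, for 323 of the 389 genes called lower and for 68 of the 84 called higher. Matches on either strand were counted, and the motifs overlap, since TGACGTGG contains TGACGTG and ACGTGG, and all of these contain ACGT. The core ACGT stood in 39.0% of all windows, in 55.7% of those of genes called lower and in 25% of those of genes called higher. The 6 bases ACGTGG, a motif taken up after values were seen, stood in 11.1% of all windows, in 31.9% of those called lower (103 genes) and in 4.41% of those called higher (3 genes). The full reporter element TGACGTGG, also taken up later, stood in 0.808% of all windows, in 5.88% of those called lower (19 genes) and in 0 of those called higher. Its shorter form TGACGTG stood in 2.67%, 9.29% and 0% of the same sets.

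The palindrome TGACGTCA, the classical cyclic AMP element, stood in 3.22% of all windows and in 3.41% of those called lower. The ER stress element, the site of the factor ATF6 at chaperone genes, stood in 17 of 11630 windows (0.146%). It stood in 0 of the 323 windows of genes called lower, which says little for an element this rare. The composite ATF4 element TGATGNAA stood in 2.22% of all windows, 4.02% of those called lower (13 genes) and 2.94% of those called higher. Median GC content was 60.7% in all windows, 61.0% in those called lower and 60.8% in those called higher. These are descriptions with no test, and a match says nothing of binding.

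The shares by list are given next, and differences between lists were not tested. Of the COPI list 10 of 17 windows held ACGTGG (58.8%), among them 8 of the 12 called genes with a window, and 4 of these, Arf1, Copb1, Copb2 and Gbf1, held the full reporter element. Of the COPII list 13 of 36 held the 6 bases, and 4 held the full element, the called Kdelr3, Sec23a and Sec24d and 1 gene that was not called. Of the Golgi list 8 of 24 held the 6 bases, with the full element at Scfd1 and Stx5a. Genes of ER-associated degradation held the 6 bases in 6 of 16 windows (37.5%) and the full element in 2 (12.5%), neither of these called. Chaperones held the 6 bases in 8 of 26 windows, and the 2 called members lacked it. The composite element stood in 5 of 17 windows of the ATF4 list, 5 of 16 of the cytosolic tRNA synthetases and 3 of 17 of the synthesis list. It stood in 3 of 20 windows of amino acid transporters, of which 0 were called, and in 2 of 26 chaperone windows. In the transport lists it stood in 1 of 36 COPII windows (the called Kdelr1), 0 of 17 COPI and 0 of 24 Golgi windows. Cytosolic ribosomal proteins held the 6 bases in 5 of 60 windows (8.33%).

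**Figure D5:**
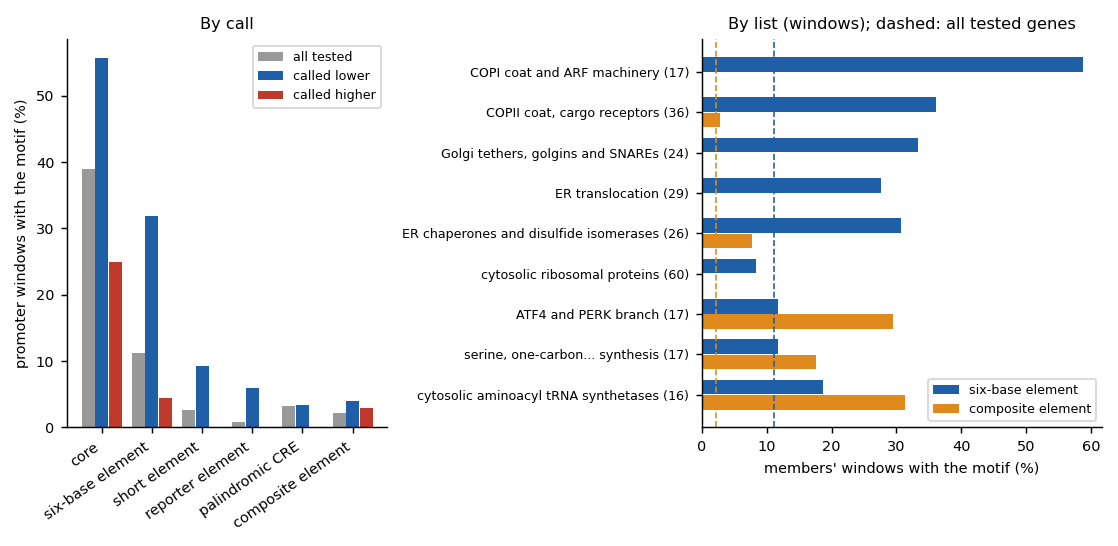
Left, share of promoter windows (%) with each element among all tested genes, genes called lower and genes called higher, where core is ACGT, the six-base element ACGTGG, the short element TGACGTG, the reporter element TGACGTGG, the palindromic CRE TGACGTCA and the composite element TGATGNAA. Right, share of each list's windows with the 6-base or the composite element, with all tested genes as dashed lines. The 6-base element stands in 58.8% of COPI windows against 11.1% of all, and the composite element in 31.3% of tRNA synthetase windows against 2.22%.

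By size alone, the largest falls among protein-coding genes with at least 100 normalized counts in a group were outside the transport lists. After Aldh1l2 and Pycr1 they were Tnfrsf23, a decoy receptor of the tumour necrosis factor family (-2.74), Slc16a5 of the monocarboxylate carriers (-2.63), Slc17a9, the vesicular nucleotide carrier (-2.59), Cgref1 (-2.48), Mettl21b (-2.44), Gnat2, the transducin of cones (-2.30), Ano7 (-2.12), Akain1 (-2.10), the carboxypeptidase Cpz (-2.07) and the metalloproteinase Mmp23 (-2.04). Gnat2 had 226 and 311 normalized counts in WT and 55.0 and 53.7 in ACreb3l2 (SE 0.216, edgeR adjusted p = 0.000928). Slc17a9 had 131 and 232 against 36.1 and 22.8 (SE 0.339, edgeR adjusted p = 0.00375). Of the 12, Slc16a5, Mettl21b and Cpz were not called under at least 1 alternative, and without WT replicate 2 Slc16a5 changed by -1.94 and Mettl21b by -1.74. Tnfrsf23, Slc16a5 and Mettl21b overlap genes on the opposite strand.

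The 12 largest rises were taken among called protein-coding genes with at least 100 normalized counts in a group, which leaves out larger rises of scarcer transcripts. Ankrd34c had 25.3 and 38.2 normalized counts in WT and 161 and 233 in ACreb3l2 (log2 change 2.63, SE 0.371, edgeR adjusted p = 0.00701), and Trank1 had 60.2 and 79.6 against 243 and 260 (log2 change 1.85, SE 0.26, edgeR adjusted p = 0.00517). Ptpro, a receptor phosphatase (1.37), Scn9a, a sodium channel (1.25), Kcnj9, a potassium channel (1.03), Tub (0.97) and Apc2 (0.97) were among the others, with the vessel factor Angpt2 (1.47), Ucma (1.34), the kinase Styk1 (1.18) and the Wnt co-receptor Lgr5 (0.99). Mobp, a myelin protein, rose from 242 and 214 to 761 and 478 (log2 change 1.45, SE 0.249, edgeR adjusted p = 0.0206). Mbp (0.70) and Cnp (0.52), of myelin too, were also called higher. Mbp and Cnp were picked after their values were seen, without a count of such genes, so nothing follows for the group. Apc2, Tub, Kcnj9, Scn9a, Mobp and Cnp share exonic sequence with other genes. Of the 12 genes Apc2 was called under every alternative, and without WT replicate 1 or 2 or ACreb3l2 replicate 1 or 2 the 12 changes kept their sign.

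Pituicyte markers lay on the same side as the myelin genes, and their part in these rises was not tested. All 12 markers of pituicytes and astroglia had a log2 change above 0 with a median of 0.37, where 48.2% of all tested genes lay below 0. Their summed level was 105593 and 83878 normalized counts in WT and 126032 and 108819 in ACreb3l2. None of them was called by edgeR (5 had an unadjusted p under 0.05 and DESeq2 called 1 higher), and none was at 0. Aqp4, the water channel of glia, had 990 and 742 against 1228 and 1184, and S100b 184 and 141 against 276 and 207. The macrophage list had a median of 0.15 over 12 genes (Mrc1 0.51, Ptprc 0.37), the endothelial list -0.01 (Cldn5 0.47, Ptprb -0.25), the fibroblast and pericyte list -0.05 (Fn1 -0.35, Acta2 0.45), the folliculostellate list 0.11 (Sox2 0.34, Krt8 -0.29, with 5 of 10 below 0) and the hypothalamic axon list -0.06 (Nefm -0.44, Nefl 0.45), with 0 called by edgeR or DESeq2 in each and at most 2 at an unadjusted p under 0.05. The anterior lobe list had a median of 0.05 with its summed level between 125763 and 231360, and 4 of its 11 genes lay below 0. Growth hormone, Gh, had a log2 change of -0.59 and Pou1f1, the factor of its cells, -0.16, while Fshb (1.06) and Gnrhr (0.79) of gonadotropes lay above 0, none of them called by edgeR. All 6 erythroid genes lay above 0 (Slc4a1 0.63, Alas2 0.58) with overlapping sums of 27741 and 13029 in WT and 36148 and 19339 in ACreb3l2.

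Interferon-stimulated genes lay above 0 in 20 of 21 cases, with a median of 0.27 and 2 called higher, where DESeq2 called 5. Ifit1 had 447 and 334 normalized counts in WT and 767 and 666 in ACreb3l2 (log2 change 0.88, SE 0.149, edgeR adjusted p = 0.0137), and Ifit3 had 852 and 792 against 1276 and 1422 (log2 change 0.71, SE 0.119, edgeR adjusted p = 0.0122). Neither call held in all 4 fits that left out a library: Ifit1 lost it without WT replicate 2 (0.68) or ACreb3l2 replicate 1 (0.77), and Ifit3 without WT replicate 2 (0.66) or ACreb3l2 replicate 2 (0.64). Both were also higher than in AXBP1 (0.97 and 0.79, edgeR adjusted p = 0.0185 and 0.0176), with Cpne7 (0.95), Fxyd6 (0.59) and the non-coding Gm26825 (2.53) among the 6 genes of that direction. Parp14 (0.64), Parp9 (0.56) and Dtx3l (0.43), looked at after their values were seen, were called higher against WT, whereas Isg15 (-0.07) and Irf7 (0.06) were not called. Parp9 and Dtx3l overlap each other, and Cpne7, Gm26825 and Parp14 overlap other genes.

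Of 19 immediate early genes Arc was called lower, with 1569 and 1579 normalized counts in WT and 989 and 936 in ACreb3l2 (log2 change -0.71, SE 0.135, edgeR adjusted p = 0.0218), a call lost with any 1 of the 4 libraries left out (-0.75 to -0.67). The list had a median log2 change of -0.39 with 15 genes below 0, and 2 of its genes were called lower without ACreb3l2 replicate 1 and 9 without the expression limit. Fos had a log2 change of -1.23 with an SE of 0.819 and was not called (edgeR adjusted p = 0.537). Of 23 genes of cholesterol synthesis and 20 of glycolysis 0 were called by edgeR, each with 1 at an unadjusted p under 0.05, with medians of 0.07 and 0.02, and DESeq2 called 0 and 1 lower. The lowest unadjusted p in these were Hmgcs1 (0.25), Ebp (-0.27), Hk2 (-0.73) and Pgk1 (-0.23).

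The 3 largest changes of any biotype were in small RNA and pseudogene loci. Rps26-ps1, a pseudogene of a ribosomal protein gene, had 557 and 400 normalized counts in WT and 12 and 6.85 in ACreb3l2 (log2 change -5.60, SE 0.633, edgeR adjusted p = 0.00802). Rprl3, a copy of the RNA subunit of RNase P, was at 0 and 2.18 normalized counts in WT and at 151 and 321 in ACreb3l2. No fold is given for it, since both WT libraries were at or under 3 counts. Gm3375, a processed pseudogene, stood at 10.7 and 2.18 against 83.4 and 199 (log2 change 4.37, SE 0.798, edgeR adjusted p = 0.0373). Each has near-identical copies elsewhere between which counting could split reads, so the 3 values are uncertain. That of Gm3375 grew without WT replicate 1, which left only a WT library at 2.18 counts.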

How the data were processed

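RNA-seq was analysed in 8 libraries of pooled lobes, grouped by the labels (age and sex of the mice are from the study's methods). Per the methods, 50-base paired reads were trimmed (Trimmomatic), mapped to mm10 (Tophat) and counted per gene (HTSeq-count), and the authors deposited raw counts per Ensembl gene together with an FPKM table, which the authors estimated. The annotation release and the strand setting are not given in the sources used here, and the labels (ribosomal depletion) and methods (a poly(A) kit) differ on enrichment. Genes with a mean above 20 after median-ratio scaling were kept, which held 99.9% of counts. Counts of all 8 libraries were fitted in edgeR 4.0.16 (R 4.3.3) with TMM factors (0.913 to 1.10), a mean per group, robust dispersion (biological coefficient of variation 0.107) and the quasi-likelihood test. SE is the log2 change over the root of F. The fitting was tested on simulated data. Alternatives were median-ratio factors, library size only, no filter, DESeq2 1.42.0, limma 3.58.1 on log2(FPKM + 0.1), a non-robust spread, only the libraries compared, a replicate block, and each library left out. Replicates were distinct libraries, with log2 counts correlating across genes at 0.989 to 0.994. Names came from the FPKM table, and coordinates and overlaps from GENCODE M21 on mm10, counted from 1. Promoter windows and their coordinates are RefSeq's on GRCm38.p6.

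The comparison and the lists were chosen with earlier results of these data known. Named genes were Creb3l2, Xbp1, Pomc and Atf4, the 12 lowest and 12 highest called protein-coding genes with at least 100 normalized counts in a group and no overlap between the values of the WT and ACreb3l2 libraries, up to 6 called members per list by adjusted p (otherwise the 2 with the lowest unadjusted p), the 3 largest changes of any biotype and up to 5 genes per direction called against AXBP1. Others were named after their values were seen, including paralogues, sugar nucleotide and ribosome biogenesis genes, myelin genes, not called list members given for comparison and the stretches of promoter shown. A few genes that these rules name are not reported here.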

Additional observations from a re-analysis of the deposited data

How the results depend on the processing

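All 473 genes called in ACreb3l2 against WT kept their direction under every alternative, and 91 of them (90 lower, 1 higher) were called under every one. Against 473 calls there were 304 with library size only, 275 with only the 4 libraries, 284 with FPKM, 755 with DESeq2 and 1455 without the filter, where 66.0% of calls were lower instead of 82.2%. Leaving out 1 library gave 153 to 618. In ACreb3l2 against AXBP1 the 112 calls became 45 with FPKM, 260 with DESeq2 and 730 without the filter, and 18 to 51 with a library left out. In ACreb3l2/AXBP1 against AXBP1 the 97 became 55 with library size only, 37 with FPKM, 287 with DESeq2 and 755 without the filter, and 7 to 127 with a library left out. The causes were not tested, except that fewer libraries leave fewer degrees of freedom. Library size only moved the median log2 change of all genes from 0.01 to 0.08, and medians near 0, such as that of the melanotrope list (-0.06 to 0.01), crossed it.

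Replicate numbers did not mark pairs: deviations of same-numbered WT and ACreb3l2 libraries correlated at 0.089 across genes. With a replicate block 321 genes were called in ACreb3l2 against WT and 58 in ACreb3l2/AXBP1 against AXBP1. With 2 libraries per group no permutation test of a single gene can reach 0.05.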
